A study of Mus musculus with 10 samples.

Results

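The transcription factor p53 and a set of its target genes were followed in CD4+ T cells of the spleen early in abdominal sepsis. The set held 10 genes, named by symbol: Trp53, which encodes p53, and Mdm2, Cdkn1a, Ccng1, Trp53inp1, Sesn1, Sesn3, Gadd45a, Zmat3 and Plk2. A probe set counted as a member when the platform annotation gave it exactly 1 symbol and that symbol was in the set. This found 20 of the 45101 probe sets on the array, for 9 of the 10 genes. Trp53 itself had no probe set named in this way and was not analysed here, so the values below are those of its regulators and targets.

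All 10 arrays came from C57Bl/6 mice aged 8 to 12 weeks, 1 array per mouse, with spleens taken 6 h after surgery under halothane. The labels name an individual mouse for every array, but the titles of all sham arrays carry biological replicate number 1 and differ only in a suffix. The design text counts 5 biological replicates in each group, and n = 5 rests on it. Cecal ligation and puncture (CLP) was done in 5 mice and releases gut bacteria into the peritoneum; in 5 sham mice the cecum was brought out, handled and returned. Cells were enriched to about 91% CD4+ by magnetic removal of the others. RNA was copied in 2 rounds of amplification before hybridisation. The cells are a mixture, and a lower signal can come from fewer cells of a type or from less RNA per cell, which cannot be told apart here.

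p53 is held low in resting cells by Mdm2, a ubiquitin ligase that is itself a p53 target, and it accumulates after DNA damage and other stresses. It binds DNA as a tetramer at paired half-sites and switches on genes that arrest the cell cycle, restrain growth signalling, repair DNA or lead to apoptosis. In T lineage cells it is best known for the death of thymocytes after irradiation and for the suppression of lymphoma. Several genes of the set, among them the sestrins and Gadd45a, answer to FoxO transcription factors, which are active in resting T cells.

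Promoter windows of 8 of the 10 genes were held in the RefSeq table of build GRCm38.p6, from 250 bases before to 50 after each start, 10 windows in all. They were searched for the p53 half-site consensus, which reads the same on both strands, and for the FoxO letters GTAAACA on either strand; in these windows no match of one motif overlapped a match of the other. A half-site was found in 6 of the 10 windows (those of Gadd45a, Mdm2, Ccng1 and Trp53, 1 of the 2 of Sesn1 and 1 of the 2 of Cdkn1a), against 8.36% of all 32851 windows. The FoxO letters were found in 2 of the 10 windows, 1 of Sesn1 and the one of Mdm2, against 3.65% of all windows. The windows of Sesn3 and Plk2 held neither. A match describes the letters only, and sites outside these windows, such as in introns, were not searched. The following windows are shown because Ccng1 and Mdm2, which restrain p53, and Cdkn1a, the best known target, lay on different sides of 0 in CLP mice. Capitals mark half-sites, and in Mdm2 also the FoxO letters; positions count from the start site.
Ccng1 (chr11:40755237-40755536, minus strand, half-site from base -185): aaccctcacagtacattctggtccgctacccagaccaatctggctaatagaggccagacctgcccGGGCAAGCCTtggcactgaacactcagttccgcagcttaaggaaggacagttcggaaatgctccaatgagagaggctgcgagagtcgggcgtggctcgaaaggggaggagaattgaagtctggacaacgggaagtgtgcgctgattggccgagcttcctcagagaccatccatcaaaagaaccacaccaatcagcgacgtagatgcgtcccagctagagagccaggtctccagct
Mdm2 (chr10:117710709-117711008, minus strand, half-site from base -186 and FoxO letters from base -153): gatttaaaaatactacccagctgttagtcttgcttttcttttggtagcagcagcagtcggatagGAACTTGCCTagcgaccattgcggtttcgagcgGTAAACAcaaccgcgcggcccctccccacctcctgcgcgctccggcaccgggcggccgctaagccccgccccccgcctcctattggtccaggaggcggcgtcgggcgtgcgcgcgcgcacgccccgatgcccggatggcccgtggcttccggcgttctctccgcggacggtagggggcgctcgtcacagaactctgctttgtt
Cdkn1a, upstream start (chr17:29090729-29091028, plus strand, half-sites from bases -73 and -51): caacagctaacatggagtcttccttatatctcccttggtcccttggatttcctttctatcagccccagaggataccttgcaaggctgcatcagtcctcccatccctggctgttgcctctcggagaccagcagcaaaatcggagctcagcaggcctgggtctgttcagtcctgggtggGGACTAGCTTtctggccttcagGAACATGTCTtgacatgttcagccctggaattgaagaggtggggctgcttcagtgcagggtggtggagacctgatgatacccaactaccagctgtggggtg

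The comparison of CLP with sham asks whether the p53 response differs between abdominal infection and surgery alone. Of the 20 member probe sets, 17 passed the filter on low values and were tested; those under it were 1 each of Mdm2, Cdkn1a and Plk2. None of the 17 passed at an adjusted p of 0.05 (limma, Benjamini-Hochberg over 27022 probe sets), where 0.703% of all probe sets tested did. At an unadjusted p under 0.05 there were 3 of 17, all lower in CLP, against 10.9% of all probe sets: a pair of Ccng1 and 1 of Sesn3. Over all probe sets, 2020 of the 2951 at this p were lower too. The mean was lower in CLP for 12 of the 17 and higher for 5. Their median difference on the log2 scale was -0.08, against 0.00 over all probe sets. The cell cycle inhibitor Cdkn1a and the growth arrest gene Gadd45a had means 1.15-fold higher each, and Ccng1 a mean 1.32-fold lower, the largest difference among the tested probe sets that stand for a gene; none of the 3 passed. A gene is represented by its brightest tested probe set unless another is named.

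**Figure D1:**
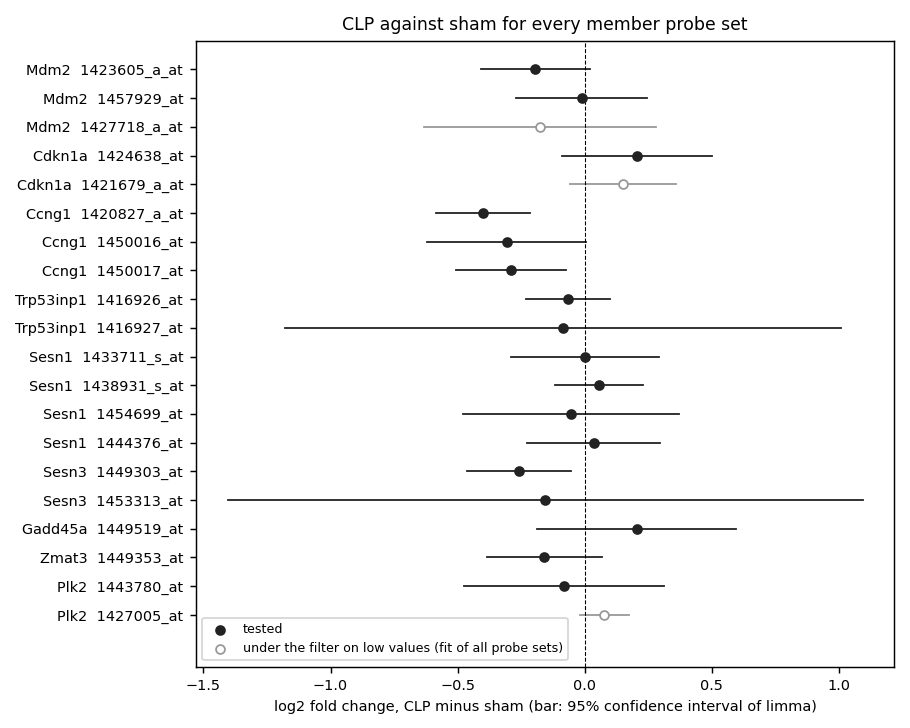
Log2 fold change of CLP over sham for all 20 member probe sets, with the 95% confidence interval of limma; open symbols are the 3 probe sets under the filter on low values, taken from the fit of all probe sets. The 3 probe sets of Ccng1 lie left of 0, and the widest bars belong to the dimmer probe sets of Sesn3 and Trp53inp1.

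Ccng1 encodes cyclin G1, a p53 target that recruits a phosphatase to Mdm2 and so takes part in the feedback on p53. Its probe set 1420827_a_at read 2240, 2074, 2098, 1814 and 1954 in CLP replicates 1 to 5, in intensity units once all arrays had been brought to the same median. In sham replicates 1 to 5 it read 2601, 2864, 2737, 2728 and 2474. Every CLP array lay below every sham array. The mean was 10.99 ± 0.11 (SD, n = 5) in CLP and 11.39 ± 0.08 in sham arrays on the log2 scale, a log2 fold change of -0.40 ± 0.08 (SE; 95% confidence interval -0.58 to -0.21). The adjusted p was 0.0613 by limma, so the difference did not pass over all probe sets. This probe set ranked at position 244 of 27022 by p.

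The other probe sets of Ccng1 had the same sign. The probe set 1450017_at read 311, 274, 290, 294 and 236 in CLP and 321, 354, 390, 312 and 338 in sham arrays. All CLP arrays were again below all sham arrays, by a narrow margin of 311 against 312 (log2 fold change -0.29 ± 0.10, adjusted p = 0.248 by limma). The probe set 1450016_at read 654, 668, 519, 857 and 496 in CLP and 770, 740, 871, 707 and 795 in sham arrays. Here CLP replicate 4 lay among the sham arrays (-0.31 ± 0.14, adjusted p = 0.468 by limma). These probe sets were designed on 1 gene, so they are repeat readings of the same mice and not separate evidence. With the groups separated in this way, 2 of 17 member probe sets, both of Ccng1, had every CLP array below every sham array, against 2.11% of all probe sets tested.

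**Figure D2:**
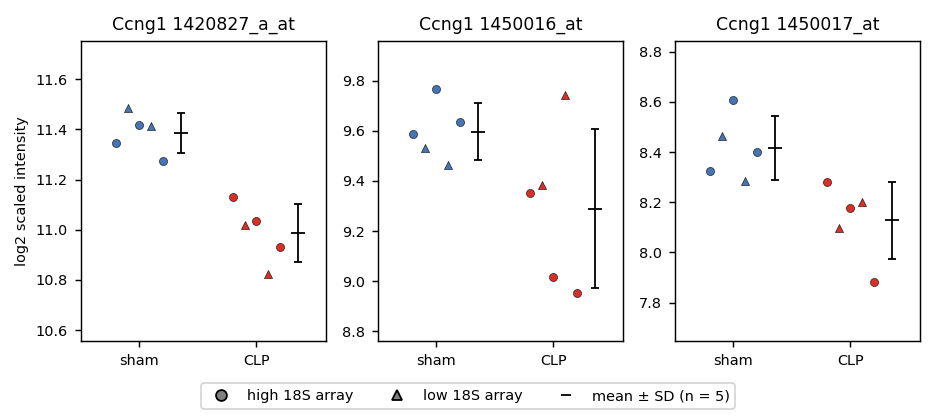
Log2 scaled intensity of the 3 Ccng1 probe sets in each array, sham and CLP, with mean and SD (n = 5 mice each) as a bar; circles are arrays with high and triangles with low 18S ribosomal RNA signal. CLP arrays sit below sham arrays for 1420827_a_at and 1450017_at, and CLP replicate 4 overlaps the sham arrays for 1450016_at.

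Whether Ccng1 passed depended on the setting. It passed with the 18S ribosomal RNA class of the arrays as a block (adjusted p = 0.0341 by limma, with 2.66% of all probe sets called), with array weights (0.0337, with 1.88% called) and without CLP replicate 1 (-0.43, adjusted p = 0.0346, with 1.87% called). Those settings also called more of all probe sets than the 0.703% above. With the class as a block and no filter on low values it did not pass (adjusted p = 0.0807). No other member probe set passed in the settings that called Ccng1.

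Over 24 other settings the log2 fold change of 1420827_a_at kept its sign and ran from -0.53 to -0.31, with an adjusted p between 0.0337 and 0.553 by limma. With the 3 probe sets averaged it was -0.33 (adjusted p = 0.0992). Within the 6 arrays of high 18S signal it was -0.31 ± 0.11, and within the 4 of low signal -0.53 ± 0.14.

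Mdm2, the ubiquitin ligase that marks p53 for degradation, is a sensitive target whose transcript usually follows p53 activity. Its brightest probe set, 1423605_a_at, read 706, 846, 746, 737 and 691 in CLP and 773, 1012, 845, 864 and 781 in sham arrays. The groups overlapped through CLP replicate 2, which lay above 3 sham arrays. The mean was 9.54 ± 0.11 against 9.73 ± 0.16 (SD, n = 5), a log2 fold change of -0.20 ± 0.10 (95% confidence interval -0.41 to 0.02; adjusted p = 0.526 by limma). Both arrays that were highest in their group, CLP replicate 2 and sham replicate 2, had low 18S signal. Within each 18S class, taken alone, every CLP array lay below every sham array: 691 to 746 against 773 to 845 in the high class and 737 to 846 against 864 to 1012 in the low class. That held for 3 of 17 member probe sets, this one and the same pair of Ccng1, against 4.97% of all probe sets. With the class as a block Mdm2 did not pass (adjusted p = 0.266 by limma), and with its tested probe sets averaged it was at -0.10.

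The other Mdm2 probe sets were dim. The probe set 1457929_at differed by -0.01 ± 0.12 on the log2 scale, and 1427718_a_at, which was under the filter on low values, by -0.18 ± 0.20 in the fit of all probe sets. The latter ran from 67 to 109 in CLP and from 79 to 152 in sham arrays, with 1 of 10 arrays at the floor of 70.4 below which values were not read. The 95% confidence interval reached up to a 1.01-fold rise for the brightest Mdm2 probe set and 1.18-fold for 1457929_at. For 1427718_a_at it reached 1.21-fold.

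Cdkn1a encodes p21, which inhibits cyclin-dependent kinases and carries out much of the p53 arrest. Its probe set 1424638_at read 451, 477, 431, 405 and 596 in CLP and 484, 428, 369, 444 and 325 in sham arrays. The groups overlapped; only CLP replicate 5 lay above all sham arrays, and the lowest values were those of sham replicates 3 and 5. The log2 fold change was 0.20 ± 0.13 (95% confidence interval -0.09 to 0.50; adjusted p = 0.704 by limma), so a rise above 1.41-fold lay outside the interval. It was 0.12 without CLP replicate 5 and also without sham replicate 5, 0.33 in the high 18S arrays alone and 0.011 in the low ones. The dimmer probe set 1421679_a_at was under the filter and ran from 100 to 107 in CLP and from 82 to 114 in sham arrays (0.15 ± 0.09 in the fit of all probe sets). Cdkn1a thus lay on the higher and Mdm2 on the lower side of 0, and neither passed.

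Gadd45a, which slows the cell cycle and takes part in DNA repair and stress kinase signalling, had 1 probe set. It read 152, 134, 128, 145 and 131 in CLP and 105, 144, 129, 164 and 76 in sham arrays. The CLP arrays were close together, with an SD of 0.11 on the log2 scale, and the sham arrays lay both above and below them, with an SD of 0.43. The log2 fold change of 0.20 ± 0.18 did not pass (adjusted p = 0.822 by limma) and was -0.14 within the low and 0.43 within the high 18S arrays. It was 0.042 without sham replicate 5, the lowest array, 0.32 without sham replicate 4, 0.11 with array weights and 0.12 with a higher floor. Plk2, a polo-like kinase of the stress response, had a tested and an untested probe set. Its tested probe set 1443780_at ran from 125 to 223 in CLP and from 123 to 196 in sham arrays (log2 fold change -0.08 ± 0.18), and 1427005_at, under the filter, ran from 62 to 83 and from 66 to 73, with 4 of 10 arrays at the floor. With so many arrays at the floor, the fold plotted for the latter is no measure of a difference.

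**Figure D3:**
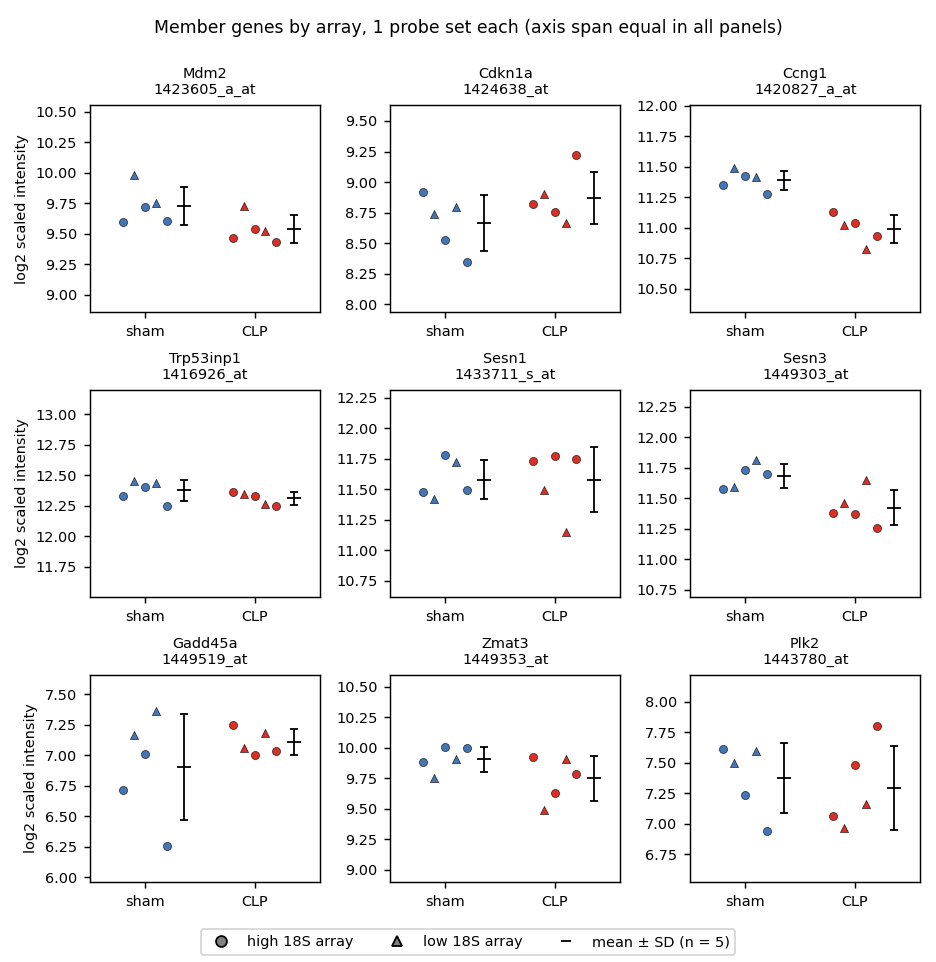
Log2 scaled intensity in each array for the brightest tested probe set of the 9 measured genes, with mean and SD (n = 5 mice per group) as a bar and the same axis span in every panel; circles are high and triangles low 18S arrays. Ccng1 is the only panel without overlap between sham and CLP, and Gadd45a shows the wide sham spread, from 76 to 164 in scaled intensity.

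The sestrins answer to stress by restraining the growth kinase mTORC1 and by supporting antioxidant enzymes. Sesn3, a sestrin of resting and FoxO-active cells, read 2669, 2820, 2648, 3210 and 2452 in CLP and 3052, 3084, 3409, 3609 and 3321 in sham arrays by its probe set 1449303_at. Only CLP replicate 4 reached into the sham range. The mean was 11.42 ± 0.14 against 11.68 ± 0.10 (SD, n = 5), a log2 fold change of -0.26 ± 0.09 (95% confidence interval -0.46 to -0.05). It had the second smallest p among the genes measured, and did not pass (adjusted p = 0.28 by limma). Leaving out single arrays gave between -0.31 and -0.22, and the low 18S arrays alone -0.15.

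Sesn1, the sestrin first found as a p53 target, was read by 4 tested probe sets that lay on both sides of 0. The brightest, 1433711_s_at, ran from 2271 to 3493 in CLP and from 2743 to 3507 in sham arrays (log2 fold change 0.00 ± 0.13), the lowest value being that of CLP replicate 4. The probe set 1438931_s_at had the smallest spread, 1836 to 2089 in CLP and 1812 to 2050 in sham arrays, and differed by 0.05 ± 0.08 (95% confidence interval -0.12 to 0.23). The probe sets 1454699_at and 1444376_at differed by -0.05 ± 0.19 and 0.03 ± 0.12. None of the 4 passed, with adjusted p between 0.921 and 1.00 by limma. A rise of more than 1.17-fold lay outside the interval of its most even probe set. The intervals of the others were wider and reached 1.22-fold for the brightest, 1.29-fold for 1454699_at and 1.23-fold for 1444376_at.

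Trp53inp1 encodes a p53-induced nuclear protein that promotes p53 activity and autophagy. Its probe set 1416926_at gave the most even reading of the set, between 4865 and 5270 in CLP and between 4871 and 5606 in sham arrays. The SD was 0.05 and 0.08 on the log2 scale and the log2 fold change -0.07 ± 0.08 (95% confidence interval -0.23 to 0.10; adjusted p = 0.89 by limma). Zmat3, a zinc finger RNA-binding protein that p53 induces, read 970, 719, 791, 962 and 883 in CLP and 942, 861, 1025, 960 and 1019 in sham arrays. CLP replicates 2 and 3 lay below all sham arrays and the others among them (-0.16 ± 0.10, adjusted p = 0.694 by limma); without CLP replicate 2 it was -0.095.

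A pair of member probe sets followed a property of the arrays that splits both groups alike. The arrays fall apart by the signal of an 18S ribosomal RNA control, 3134 to 5178 in 6 arrays (replicates 1, 3 and 5 of both groups) and 194 to 268 in 4 (replicates 2 and 4 of both groups). The labels do not say what this property is. The dimmer probe set of Sesn3, 1453313_at, read 304 to 512 in the high and 97 to 166 in the low 18S arrays, a difference of 1.87 ± 0.19 on the log2 scale (adjusted p = 0.000138 by limma, with group as a term). That of Trp53inp1, 1416927_at, read 340 to 622 and 115 to 146, a difference of 1.63 ± 0.17 (adjusted p = 0.000156). These were the only 2 of 17 member probe sets to pass in this comparison, against 15.1% of all probe sets tested.

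The brighter probe sets of the same genes did not differ in this way: Sesn3 by -0.13 ± 0.09 (adjusted p = 0.363 by limma) and Trp53inp1 by -0.05 ± 0.07 (adjusted p = 0.67). The ratio of the 3 prime to the 5 prime Gapdh control also differed between the classes, at 20.7 to 29.5 in high and 9.45 to 13.4 in low 18S arrays; its part in these values was not tested. The classes hold both groups alike. The mean 18S signal was close in CLP and sham arrays (2297 ± 1932 against 2524 ± 2225, SD, n = 5, exact two-sided permutation p = 0.802). That closeness largely follows from the balance of the classes, so the test cannot speak to a difference within a class. In CLP against sham, 1453313_at differed by -0.16 ± 0.57 and 1416927_at by -0.08 ± 0.50, with intervals that reach from -1.41 to 1.09 and from -1.18 to 1.01. With the class as a block the values were -0.16 ± 0.18 (adjusted p = 0.781 by limma) and -0.08 ± 0.16 (adjusted p = 0.881). Among the 6 high 18S arrays 1453313_at read 304, 357 and 380 in CLP and 473, 488 and 512 in sham arrays (-0.51 ± 0.12, adjusted p = 0.122 by limma). The difference of the CLP effect between the classes was -0.87 ± 0.28 and did not pass (adjusted p = 1.00).

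**Figure D4:**
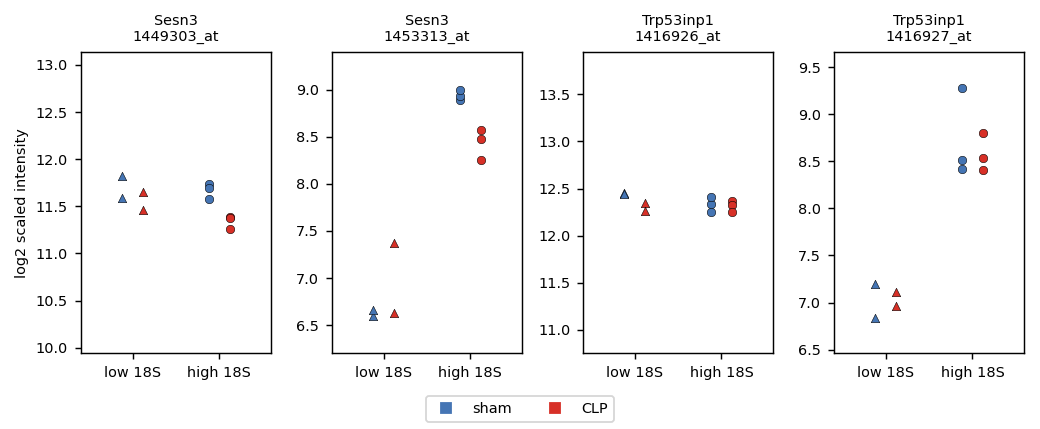
Log2 scaled intensity of both probe sets of Sesn3 and of Trp53inp1 in arrays of low (n = 4) and high (n = 6) 18S ribosomal RNA signal, sham in blue and CLP in red; all panels span the same range. The dimmer probe set of each gene is higher in all 6 high 18S arrays, by 1.87 and 1.63 on the log2 scale, while the brighter one differs by -0.13 and -0.05.

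The wider pathway was read from gene lists. Of 49 measured genes that regulate p53 or are among its other targets, none passed over all probe sets, while 11 had an unadjusted p under 0.05, 9 of them lower in CLP. Over all 13073 genes measured, 11.8% had such a p, and 1071 of those 1548 were lower. Their median log2 fold change was -0.02, against 0.00 over all genes. Among 14 regulators the median was -0.10, and 9 were lower and 5 higher. The lowest p were those of kinases and adaptors of the DNA damage signal: Atm, the kinase that senses double-strand breaks (-0.30 ± 0.11, adjusted p = 0.278 by limma), Trp53bp1, which binds at breaks (-0.44 ± 0.19, adjusted p = 0.418), Atr, the kinase of replication stress (-0.25 ± 0.11, adjusted p = 0.421), and the checkpoint kinase Chek2 (-0.47 ± 0.20, adjusted p = 0.423). With probe sets averaged, Atr was at 0.26 and Trp53bp1 at -0.14. Chek2 was at -0.29 in the high 18S arrays alone and -0.73 in the low ones. The checkpoint kinase Chek1, of the same list, lay on the higher side (0.33 ± 0.29, adjusted p = 0.828 by limma).

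Of 8 further arrest targets 6 were higher, with a median of 0.05. Pml, a nuclear body protein that is also interferon-induced, had a log2 fold change of 0.58 ± 0.19 (adjusted p = 0.206 by limma, and 0.0251 with the 18S class as a block). The block without a filter gave an adjusted p of 0.0977, array weights 0.0454, and with probe sets averaged Pml was at 0.31 (adjusted p = 0.587). Btg2, an antiproliferative gene, was at -0.44 ± 0.26, and at -0.28 without CLP replicate 4. Psrc1 had a value of -0.25, and of -0.012 with probe sets averaged; Sfn had 0.10, and 0.037 in the high 18S arrays alone. Of 12 death targets 7 were higher, with a median of 0.06 and no unadjusted p under 0.05. Casp1 was at -0.24 ± 0.13, Bbc3 (PUMA), the main death effector of p53 in lymphocytes, at 0.17 ± 0.12 (0.088 without sham replicate 2), Cd82 at -0.11 ± 0.08 and the nuclease Aen at 0.13 ± 0.13 (0.032 without CLP replicate 2). Casp1 was at -0.15 without CLP replicate 5. Of 15 repair and metabolism targets 10 were lower and 5 higher, with a median of -0.09. An unadjusted p under 0.05 was seen for 6, of which 5 were lower. The higher one was Tap1 (0.38 ± 0.17, adjusted p = 0.431 by limma). The lowest p were those of the epoxide hydrolase Ephx1 (-0.46 ± 0.18), the bypass polymerase Polk (-0.38 ± 0.16), Tigar, which limits glycolysis (-0.30 ± 0.13), and Sco2, an assembly factor of respiration (-0.42 ± 0.18). None of these passed, with adjusted p between 0.332 and 0.42 by limma. With probe sets averaged Polk was at -0.21, and with array weights Ephx1 was at -0.31 and Tigar at -0.20.

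Close relatives of the members were read as well. Of 12 measured paralogs 1 passed: Zmat1, of the same zinc finger family as Zmat3, fell. It read 237, 151, 138, 180 and 147 in CLP and 300, 349, 353, 309 and 300 in sham arrays, with no overlap. Its log2 fold change was -0.94 ± 0.14 (adjusted p = 0.0225 by limma), in contrast to -0.16 ± 0.10 for Zmat3; the difference between these genes was not tested. The call was lost without any one of CLP replicates 2, 3 or 5 or sham replicates 1 to 4, where the adjusted p lay between 0.0505 and 0.0888 with log2 fold changes from -0.97 to -0.87. Without a filter on low values the adjusted p was 0.0886.

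Ccng2, the other G-type cyclin and a FoxO target, read 1518, 1429, 1351, 1426 and 1355 in CLP and 1643, 1610, 1908, 1837 and 1523 in sham arrays. Like Ccng1 it had every CLP array below every sham array, here by a narrow margin of 1518 against 1523. It did not pass (-0.26 ± 0.09, adjusted p = 0.226 by limma), and with probe sets averaged it was at -0.10. The paralogs Trp53inp2 and Zmat2 were at 0.08 ± 0.09 and 0.11 ± 0.16. Over the 12 paralogs the median was 0.05 and 9 were higher.

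Of 14 FoxO genes and targets none passed, and 7 were lower and 7 higher (median 0.03). Beside Ccng2 the lowest p were those of the death gene Bcl2l11 (0.55 ± 0.21, adjusted p = 0.303 by limma, 0.0156 with the 18S class as a block, 0.061 with that block and no filter, and 0.0375 with probe sets averaged), Pik3ip1, an inhibitor of PI3K (0.42 ± 0.22, and 0.26 without sham replicate 2), and Foxo1 itself (-0.19 ± 0.10). Of 12 glucocorticoid targets, read because surgery and sepsis raise the hormone, Klf9 and Dusp1 rose (1.03 ± 0.13 and 0.96 ± 0.13, adjusted p = 0.0163 for both by limma). Both calls were lost without CLP replicate 5 (adjusted p = 0.0535 and 0.0561), without sham replicate 3 (0.0551 and 0.073) and with no filter (0.0647 for both). Fkbp5 and Tle3 were at 0.76 ± 0.16 and -0.38 ± 0.10, and the list had a median of 0.60. With probe sets averaged Klf9 was at 0.64 (adjusted p = 0.0192), Fkbp5 at 0.50 and Tle3 at -0.16. This list stands apart from the p53 lists in its median; the difference between lists was not tested. The lists were chosen with earlier results of these arrays known, so their direction is not independent evidence.

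**Figure D5:**
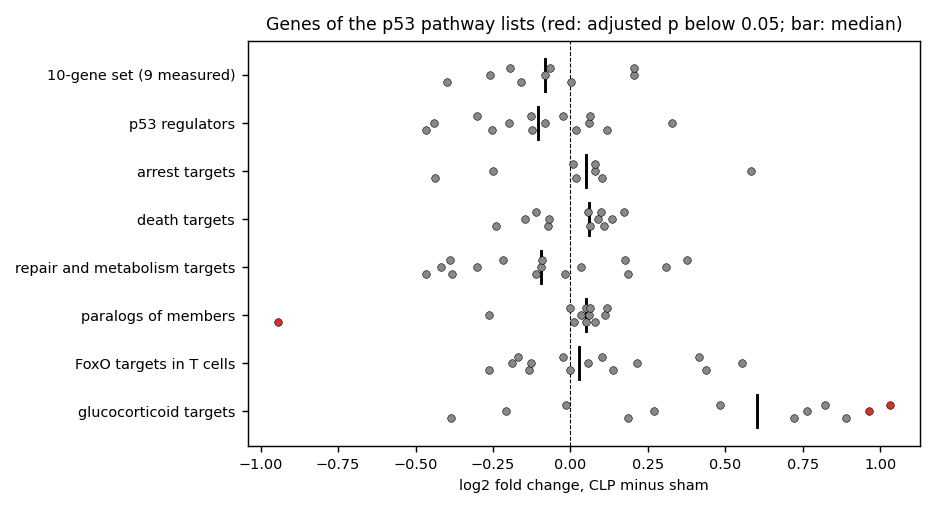
Log2 fold change of CLP over sham for the measured genes of the 10-gene set and of each pathway list, 1 point per gene by its brightest tested probe set; red points passed at an adjusted p of 0.05 and black bars are medians. The p53 lists lie around 0, with medians from -0.10 to 0.06, and the points that passed are Zmat1, Klf9 and Dusp1.

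Of 12 listed markers of CD4 T cells, 11 were measured, none passed, and 10 were lower in CLP. Their summed intensity ran from 19672 to 24515 in CLP and from 23219 to 30260 in sham arrays. All sums in this paragraph are of deposited intensities, before the arrays were brought to the same median. At an unadjusted p under 0.05 there were 4 of the 11, all lower in CLP, against the 11.8% of all genes given above: Thy1 (-0.79 ± 0.27), Trat1 (-0.72 ± 0.16, adjusted p = 0.0694 by limma), Cd5 (-0.69 ± 0.17) and Cd28 (-0.35 ± 0.13), which are named after their values were seen. Cd4 itself and the receptor chain Cd3e were read at -0.12 ± 0.13 and -0.12 ± 0.09. The erythroid list had a median of 0.15 over 7 measured genes, 5 higher and 2 lower, and none passed. The largest differences were those of Slc4a1 (1.42 ± 0.57, adjusted p = 0.364 by limma), Alas2 (0.95 ± 0.45, 0.488) and Rhag (0.77 ± 0.35, 0.449). Sums ran from 4952 to 10910 in CLP and from 4395 to 7173 in sham arrays. Of the 7 genes 2 had an unadjusted p under 0.05, and none of those was lower. None of the markers of B cells (8 measured), monocytes and macrophages (7), neutrophils (9), NK and CD8 T cells (8), dendritic cells (5) or platelets (7) passed, with medians between -0.08 and 0.13. Of the 8 NK and CD8 T cell markers 4 had an unadjusted p under 0.05, all lower in CLP, as were most of the genes at this p over the whole array, with sums of 3611 to 3970 in CLP and 3953 to 4835 in sham arrays. Of the 7 monocyte and macrophage markers 2 had such a p, 1 of them lower, and of the 7 platelet markers 1, which was lower. No B cell, neutrophil or dendritic cell marker had such a p. The neutrophil markers lay on both sides of 0, 4 lower and 5 higher, with a median absolute log2 fold change of 0.54. No listed marker was at 0 in any array. The part of the cell mixture in the values of Ccng1, Sesn3 and Mdm2 was not tested.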

How the data were processed

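RNA of 10 mice was read on 10 Affymetrix arrays, 5 CLP and 5 sham, grouped by title; a sham number is its title's suffix. The authors deposited linear intensities, from 0 to 20290 with array medians of 127.6 to 142.4; how they were made is not stated in the labels. Precision is limited by the number of arrays.

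Arrays were brought to 1 median, values under the 25th percentile (70.4) were raised to it, and log2 values were taken. After removal of 64 controls and of probe sets whose mean was under the 40th percentile, 27022 remained. limma 3.58.1 (R 4.3.3) compared the groups, with Benjamini-Hochberg adjustment over all of them and a threshold of 0.05; fold changes are CLP over sham. Of all probe sets, 34958 had 1 symbol in the platform annotation, 932 several and 9160, beside controls, none. The fit was tested on simulated data, with known changes placed among the brighter probe sets. It recovered 43.3% of 1.5-fold, 70.1% of 2-fold and 97% of 3-fold changes, so small changes can be missed.

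The members, lists, 18S split (at an intensity of 1000) and tests were chosen with earlier results of these data known. Named were all members and up to 4 genes of lowest p in each pathway list, and marker genes that passed. Cd4, Cd3e, 4 further T cell markers, Chek1, Tap1 and the erythroid genes Slc4a1, Alas2 and Rhag were added after their values were seen. Alternatives were scaling, floors, filters, variance models, array weights, the 18S class, a replicate block, averaged probe sets and leaving out each array; the class as a block with no filter was added after seeing the data.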

Additional observations from a re-analysis of the deposited data

Results flagged for a closer look

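Each group of 5 arrays was read for a single array far from the others, over the 20 member probe sets and the named genes of the pathway lists. Of 94 groups 2 stood out, where chance gives about 1 in 20. In the CLP arrays the dim Cdkn1a probe set 1421679_a_at had CLP replicate 2 lowest, at a scaled intensity of 100 against 106 to 107 in the other CLP arrays; the gap was 0.846 of the whole range, which is itself small. In the sham arrays Fkbp5 had sham replicate 5 highest, at 1651 against 820 to 950 in the other sham arrays, a gap of 0.789 of the range; without that array its log2 fold change was 0.94.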

How the results depend on the processing

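Over all probe sets 45 were higher and 145 lower in CLP. These counts became 0 and 3 with no filter, 154 and 355 with array weights, 175 and 543 with the 18S class as a block, and 0 and 0 in the high and in the low 18S arrays alone, where fewer arrays enter the fit. Leaving out single arrays gave 0 to 123 higher and 4 to 383 lower. With the replicate block they were 90 and 158 and Ccng1 1420827_a_at had an adjusted p of 0.0869; deviations of same-numbered arrays correlated between 0.06 and 0.58 and only number 2 was the best match both ways, so the numbers were not taken as pairs. The count of members went from 0 to 1 with array weights and with the class as a block, and was 0 to 1 on leaving out arrays. Pathway genes higher went from 2 to 0 with no filter and in either class alone, to 4 with array weights and 5 with the class as a block, and to 0 to 3 on leaving out arrays; those lower went from 1 to 0 with no filter and in either class alone, and to 0 to 1 on leaving out arrays. The cause of these shifts was not tested.

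Signs turned for values near 0 or tied to the 18S class. In the low 18S arrays alone Ccng1 1450016_at was 0.065, Gadd45a -0.14, Sesn1 1433711_s_at -0.25, Sesn3 1453313_at 0.37 and Trp53inp1 1416927_at 0.021. In the high 18S arrays alone Mdm2 1457929_at was 0.054, Plk2 1443780_at 0.18 and Sesn1 1444376_at -0.10, and with the floor raised to the 40th percentile the last was -0.015. With array weights Sesn3 1453313_at was 0.16 and Trp53inp1 1416927_at 0.28. With probe sets averaged Atr was 0.26 and Cd82 0.039. On leaving out arrays the ranges were -0.085 to 0.052 for Mdm2 1457929_at, -0.21 to 0.00039 for Plk2 1443780_at, -0.048 to 0.11 for Sesn1 1433711_s_at, -0.028 to 0.12 for Sesn1 1444376_at, -0.18 to 0.066 for Sesn1 1454699_at, -0.51 to 0.15 for Sesn3 1453313_at and -0.39 to 0.22 for Trp53inp1 1416927_at. All other tested member values kept their sign under every alternative run.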
